A study of Mus musculus with 8 samples.

Results

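The 9 genes described here are grouped around the feedback loop through which cyclic AMP drives transcription. They are transcription factors (Creb1 and Crem), coactivators (Crtc1, Crtc2 and Crtc3), salt-inducible kinases (Sik1, Sik2 and Sik3) and the Ras-like GTPase Rasd1. They were taken by symbol from the gene table of an islet RNA sequencing experiment, and all 9 of the 15985 symbols in that table passed the filter on low values. Sik1, Crem and Rasd1 are genes whose transcription is itself switched on by stimulation and are called the 3 induced members. The other 6 are called constitutive. Isolated pancreatic islets of 8 mice aged 13 to 16 months and of mixed strain were sequenced in bulk, with 4 libraries in each group. The KO animals carried Ins-Cre, a recombinase under the insulin promoter, together with floxed Sox9 on both alleles (Ins-Cre;Sox9fl/fl). The WT animals had no Cre and were Sox9fl/fl (WT1), Sox9fl/+ (WT2), Sox9+/+ (WT3) and Sox9+/fl (WT4). Presence of Cre and loss of Sox9 therefore cannot be told apart, and the islet cells in which the insulin promoter is silent keep their Sox9 in either group.

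When glucose, incretin hormones or nerve signals raise cyclic AMP and calcium in a beta cell, protein kinase A phosphorylates CREB, while the phosphatase calcineurin frees the CRTC coactivators from their cytoplasmic 14-3-3 anchors so that they enter the nucleus and join CREB on its target genes. The salt-inducible kinases, activated by the LKB1 complex and restrained by protein kinase A, phosphorylate the CRTC proteins and send them back to the cytoplasm. Sik1 and Crem are themselves CREB target genes whose products (a CRTC kinase and, from an internal promoter of Crem, the repressor ICER) damp the response, and Rasd1, first found as a glucocorticoid-induced transcript, encodes a small GTPase that acts on heterotrimeric G protein and cyclase signalling.

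Values are reads per gene estimated by kallisto and divided by a size factor of the library, here called normalized values. A single read was worth between 0.659 and 1.379 of these units, and the libraries held an estimated 11 to 26.2 M reads, with WT2 the deepest. Sox9 did not check the labels: its normalized values were 36.6, 16.4, 20.6 and 11.7 in KO1 to KO4, against 23.3, 37.3, 13.4 and 13.3 in WT1 to WT4 (log2 difference -0.02, SE 0.44, limma adjusted p = 0.99), and the gene total does not separate the floxed exons. Of 15960 genes tested with limma, 9 passed an adjusted p of 0.05, which is 0.0564% of the genes (6 higher and 3 lower in KO islets). With every library rescaled to the same total the split was 10 higher and 0 lower. The median log2 fold change of all genes, KO minus WT, was -0.03 in the values as deposited and 0.05 after that rescaling. The study's methods describe males for this experiment, but 4 Y-linked genes summed to 117 normalized units in WT3, against 2367 to 2712 in the other 7 libraries. Summed acinar markers ranged over 109023 to 278586 units in KO islets and 38460 to 196515 in WT islets, lowest in WT2, with all 15 of 15 acinar genes at a positive fold change. The 10 beta cell markers made up 28.5 to 35.5% of all units in KO islets and 31.6 to 39.1% in WT islets, and none of the 10 was at 0. In bulk islets, fewer cells of a type and less RNA per cell cannot be told apart.

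Among the 9 members, Rasd1 and Sik1 had the most different values in KO and WT islets. Rasd1 averaged 5.13 times and Sik1 1.78 times its WT mean in KO islets, whereas Crem and the 6 constitutive members stayed between a log2 fold change of -0.27 and 0.00. In the limma fit 0 of the 9 members passed the adjusted threshold, and 2 of 9 (Rasd1 and Sik1, both higher in KO) had an unadjusted p below 0.05. Over all genes, 4.34% were higher and 6.36% lower in KO islets at that unadjusted level. The groups did not overlap for 1 member, Rasd1, with all KO values above all WT values, as for 2.67% of all genes. In the other direction the count was 0 of 9 members, against 3.68% of all genes with all KO values below all WT values.

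**Figure D1:**
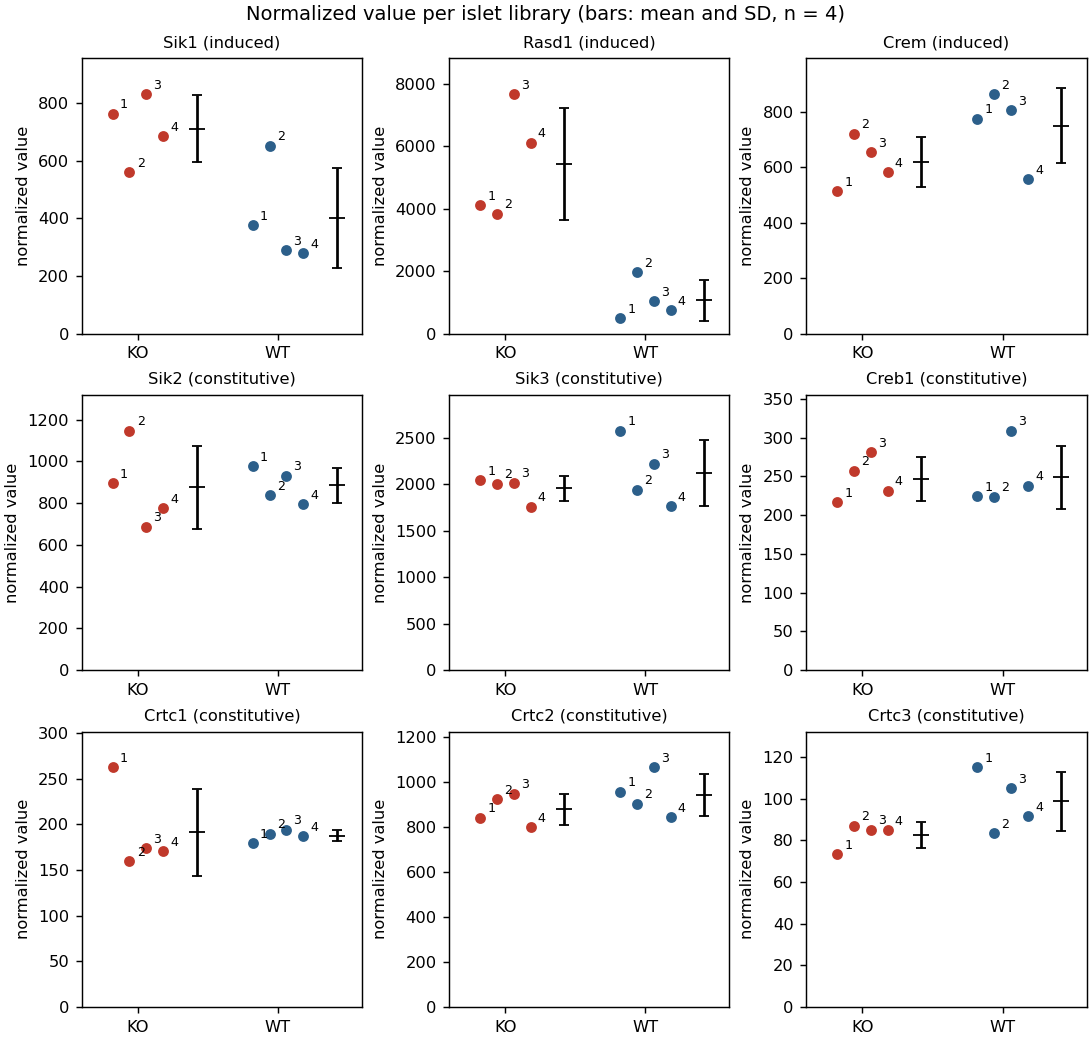
Normalized value (vertical axis, linear, from 0) of each of the 9 members in the 4 KO libraries (red) and the 4 WT libraries (blue), numbered by replicate, with the mean and SD of each group in black. Rasd1 is the panel in which the groups do not overlap; for Sik1 they overlap through KO2 (561) and WT2 (652) alone.

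Rasd1 (ENSMUSG00000049892; GRCm38 chromosome 11, 59963181 to 59964944, minus strand, 1 annotated transcript) is the only member with a single transcript model. It had normalized values of 4109, 3839, 7666 and 6108 in KO1 to KO4, against 487, 1966, 1037 and 746 in WT1 to WT4. Every KO islet sample lay above every WT sample, and the lowest KO value (KO2) was 1.95 times the highest WT value (WT2). The group means were 5430 ± 1802 in KO islets and 1059 ± 645 in WT islets (SD, n = 4 each). On the log2 scale the difference was 2.49 (SE 0.44, 95% interval 1.47 to 3.51), a fold of 5.62, with a limma unadjusted p of 0.00057 and an adjusted p of 0.119. This placed Rasd1 as the 19th highest fold change and the 76th smallest p of the 15960 genes, and it did not pass the adjusted threshold. The spread inside the WT group was wide, with the highest WT value 4.04 times the lowest, against 1.997 times in the KO group.

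Sik1 (ENSMUSG00000024042; chromosome 17, 31844250 to 31855804, minus strand) encodes the salt-inducible kinase whose transcript, unlike those of its relatives, is made on demand. Its normalized values were 764, 561, 832 and 686 in KO1 to KO4, against 377, 652, 290 and 280 in WT1 to WT4. KO1, KO3 and KO4 exceeded every WT library, and KO2 exceeded every WT library except WT2. The means were 711 ± 116 in KO islets and 400 ± 174 in WT islets (SD, n = 4 each). The log2 difference was 0.90 (SE 0.25, 95% interval 0.35 to 1.46), a fold of 1.87, with a limma unadjusted p of 0.00468 and an adjusted p of 0.229, so that Sik1 did not pass either.

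Crem (ENSMUSG00000063889; chromosome 18, 3266048 to 3337748, minus strand) has 39 annotated transcripts, which include activators and the cyclic AMP-inducible repressor ICER, and the gene value used here sums them. It was measured at 513, 722, 656 and 582 in KO1 to KO4, against 776, 865, 806 and 558 in WT1 to WT4. The groups overlapped, since WT4 lay within the KO range while the other 3 WT libraries lay above it. Crem averaged 618 ± 90.3 in KO islets and 751 ± 134 in WT islets (SD, n = 4 each), and its log2 difference of -0.27 (SE 0.15, 95% interval -0.61 to 0.06) had a limma adjusted p of 0.57. Of the 3 induced members it was therefore the one with a negative point estimate, with no KO library above the WT median.

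**Figure D2:**
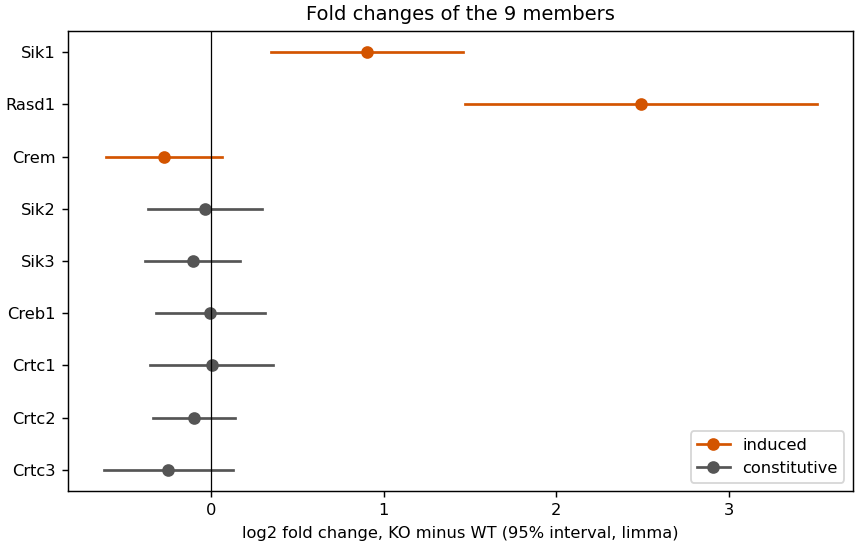
Log2 fold change, KO minus WT, of each member (point) with its 95% limma interval (line), induced members in orange and constitutive members in grey. The intervals of Rasd1 (1.47 to 3.51) and Sik1 (0.35 to 1.46) lie above 0, and those of Crem and the 6 constitutive members include 0.

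Sik2 and Sik3, the constitutive kinases, had overlapping values in KO and WT islets. Sik2 (chromosome 9, 50892801 to 51009073, minus strand), the family member best known as a CRTC2 kinase, had 896, 1147, 687 and 775 units in KO1 to KO4, against 976, 837, 931 and 796 in WT1 to WT4. Sik3 (chromosome 9, 46012820 to 46224194, plus strand), which likewise phosphorylates CRTC proteins and class IIa HDACs, had 2044, 2005, 2019 and 1756 units in KO islets, against 2576, 1942, 2220 and 1761 in WT islets. For Sik2 the highest and the lowest Sik2 value were both KO libraries, and for Sik3 the WT libraries spread more widely than the KO libraries. The log2 difference was -0.04 for Sik2 (SE 0.15, 95% interval -0.37 to 0.29) and -0.11 for Sik3 (SE 0.13, 95% interval -0.38 to 0.17), with limma adjusted p values of 0.958 and 0.806.

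The promoter of Sik3 is shown because it held the most core sites (TGACG) of the cyclic AMP response element among the 5 members matched in the RefSeq promoter table (Creb1, Crtc1, Crtc3, Sik2 and Sik3), although Sik3 was not among the members with different values. The window reads, 5′ to 3′ on the plus strand at chr9:46012670-46012819 (GRCm38.p6, the 150 bases before the annotated start), with each core site TGACG in capitals:
Sik3: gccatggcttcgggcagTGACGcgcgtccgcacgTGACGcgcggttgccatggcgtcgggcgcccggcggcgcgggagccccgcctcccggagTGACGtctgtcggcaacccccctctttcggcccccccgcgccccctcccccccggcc
The 3 core sites begin at positions -133, -116 and -57 from the start (-1 is the base before it). In windows of 300 bases (250 before the start and 50 from it), TGACG on either strand occurred at least once in 20.8% of 32851 RefSeq promoters and at least 3 times in 1.03%. The full palindrome TGACGTCA, which contains the core site on both strands, occurred in 1.79%. The window of Sik2 held 2 core sites, those of Creb1, Crtc1 and Crtc3 held 0, and the full palindrome was in 0 of the 5 windows. Such a match describes letters in a window and not binding.

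Creb1 (ENSMUSG00000025958; chromosome 1, 64532645 to 64604548, plus strand), the cyclic AMP-responsive transcription factor itself, had 217, 257, 281 and 232 units in KO1 to KO4, against 224, 224, 309 and 238 in WT1 to WT4. The group ranges nearly coincided, at 247 ± 28.3 in KO islets and 249 ± 40.6 in WT islets (SD, n = 4 each). The log2 difference was -0.01 (SE 0.15, 95% interval -0.32 to 0.31).

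Of the coactivators, Crtc1 (chromosome 8, 70382355 to 70439579, minus strand), best known from neurons, had 263, 160, 174 and 171 units in KO1 to KO4, against 180, 190, 194 and 187 in WT1 to WT4. KO1 stood above all other libraries and the other 3 KO libraries below all WT libraries, which left the means at 192 ± 47.6 in KO islets and 188 ± 6.10 in WT islets (SD, n = 4 each). Crtc2 (chromosome 3, 90254163 to 90264125, plus strand), the coactivator known for glucose and incretin responses in beta cells and liver, had 841, 923, 948 and 799 units in KO islets, against 956, 903, 1065 and 844 in WT islets. Crtc3 (chromosome 7, 80586627 to 80688877, minus strand) had 73.3, 87.0, 85.03 and 84.7 units in KO islets, against 115, 83.3, 105 and 91.6 in WT islets. For Crtc2 and Crtc3 the groups overlapped, and for Crtc3 only WT2 lay inside the KO range. The log2 differences were 0.00 for Crtc1 (SE 0.16, 95% interval -0.36 to 0.36), -0.10 for Crtc2 (SE 0.11, 95% interval -0.34 to 0.14) and -0.25 for Crtc3 (SE 0.17, 95% interval -0.62 to 0.13).

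Across the 6 constitutive members, the limma adjusted p was at least 0.643 and the coefficient of variation between libraries was 6.85 to 24.8% in KO islets and 3.25 to 16.7% in WT islets. For the 2 members Sik1 and Rasd1, the coefficient was 16.4% and 33.2% in KO islets, against 43.4% and 60.9% in WT islets. The median log2 difference of the constitutive members was -0.07, with 5 of 6 negative, beside -0.03 over all genes. Once every library was rescaled to the same total, it was 0.02 with 3 of 6 negative, beside 0.05 over all genes. The sign of this median followed the scaling, which moved all genes, so no direction can be given for them as a group.

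**Figure D3:**
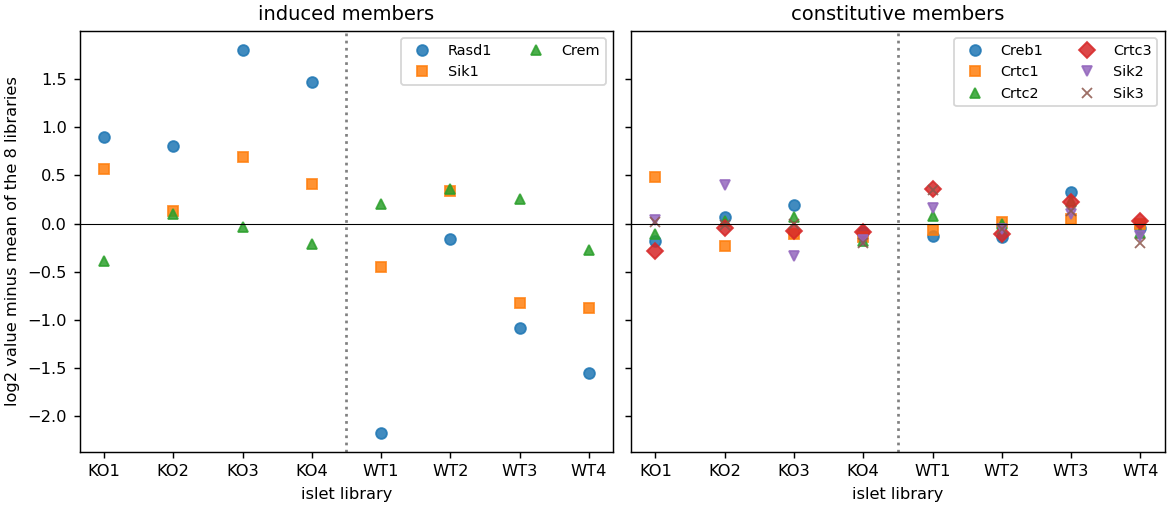
Log2 value of each member minus its mean over the 8 libraries (vertical axis), by library, for the induced members (left) and the constitutive members (right), KO libraries left of the dotted line. Rasd1 and Sik1 are above 0 in all 4 KO libraries, whereas Crem is above 0 in KO2 alone among them. WT2 is the highest WT library for each induced member, Crem included.

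Per kilobase of merged exon length (GENCODE vM21), the order of the members was nearly the same in both groups. Rasd1 was the highest in either group, at 3371 ± 1118 units per kilobase in KO islets and 657 ± 400 in WT islets. Crtc2 (214 in KO, 230 in WT) and Sik3 (210 in KO, 228 in WT) came next, and their ranges overlapped in each group. Below them and apart from them stood Sik1, Crem and Sik2, which overlapped among themselves and lay above Creb1 in both groups: Sik1 was the highest of these 3 in KO islets (138 per kilobase) and the lowest of them in WT islets (77.9). Creb1 (18.0 in KO, 18.1 in WT) and Crtc1 (17.1 in KO, 16.8 in WT) overlapped with each other, and Crtc3 was the lowest member (8.38 in KO, 10.02 in WT), apart from Crtc1 in both groups. Levels per kilobase depend on the transcripts a cell uses, which the gene values do not give.

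Ratios between relatives within a library do not depend on the size factors. The log2 ratio of Sik1 to Sik3 was -1.42, -1.84, -1.28 and -1.36 in KO1 to KO4, against -2.77, -1.57, -2.93 and -2.65 in WT1 to WT4. WT2 lay inside the KO range, and the other 3 WT libraries lay below it. The ratio averaged -1.47 ± 0.25 in KO islets and -2.48 ± 0.62 in WT islets, a difference of 1.01 (exact two-sided permutation p = 0.0571, adjusted p = 0.0857 over the 3 ratios compared). Sik1 to Sik2 differed by 0.94 (-0.29 ± 0.54 in KO islets, -1.23 ± 0.59 in WT islets, SD, n = 4 each) with the same exact permutation p of 0.0571. Crem to Creb1 differed by -0.27 (1.32 ± 0.12 in KO islets, 1.59 ± 0.34 in WT islets) with an exact permutation p of 0.229. The smallest p that the 70 assignments of libraries allow is 0.0286, and 0 of the 3 ratios passed 0.05.

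A single library decided the calls of Rasd1 and Sik1. Without WT2 the log2 difference of Rasd1 was 2.85 with a limma adjusted p of 0.0106, that of Sik1 was 1.17 with an adjusted p of 0.0118, and both passed, as did 58 of 15943 genes in all (0.364%). Leaving out any of the other 7 libraries kept Rasd1 between 2.18 and 2.64 and Sik1 between 0.76 and 1.01, with neither passing. The other 7 members passed in none of the fits. WT2, a Sox9fl/+ animal, was the deepest library and had the lowest summed acinar markers (38460). It also had the highest summed stellate and fibroblast markers (3429, against 543 to 1766 in the other WT libraries). WT4, likewise with 1 floxed allele (Sox9+/fl), had Rasd1 at 746 and Sik1 at 280. WT1, at an estimated 23.0 M reads, had Rasd1 at 487. Apart from a fit with the acinar marker score as a covariate, the part of these traits of WT2 in the result was not tested. With the acinar marker score as a covariate, Rasd1 was at 2.96 (adjusted p = 0.116) and Sik1 at 1.07 (adjusted p = 0.338). Without WT3, the library low in Y-linked transcripts, Rasd1 was at 2.54 (adjusted p = 0.249) and Sik1 at 0.78 (adjusted p = 0.413).

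**Figure D4:**
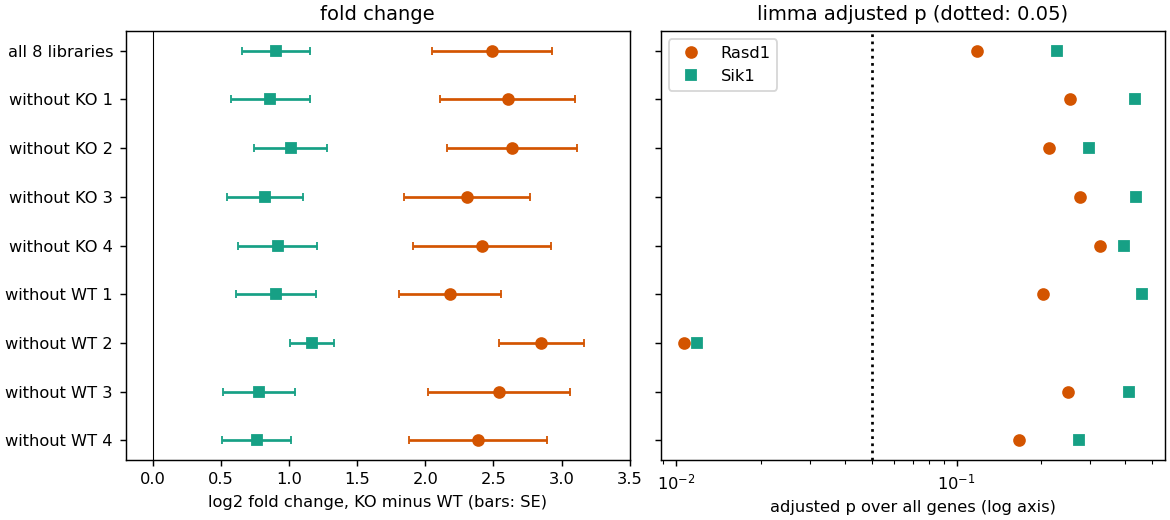
Left, log2 fold change, KO minus WT, with its SE for Rasd1 (orange circles) and Sik1 (green squares) in all 8 libraries and with each library left out. Right, the limma adjusted p over all genes on a log axis, dotted at 0.05. The fit without WT2 is the single one in which both genes fall left of the line (0.0106 and 0.0118).

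The genes whose profile over the 8 libraries was most like that of each induced member were named by the root mean square distance of centred log2 values among 11477 genes with a mean of at least 50. Nearest to Rasd1 were Egr1 (0.29), Jun (0.31), Npas4 (0.31), Dusp1 (0.32) and Ier2 (0.33), all of them immediate early genes. Sik1 was the 54th nearest gene to Rasd1 (0.91), while Crem was the 8598th. Counted from Sik1, however, Rasd1 was only the 11044th of the 11477 genes, since the distance also grows with a difference in amplitude. Nearest to Sik1 itself were Mnx1 (0.17), Dnajc25 (0.18), Tnfaip3 (0.21), Zfp677 (0.22) and Klf4 (0.22). Nearest to Crem were Cadm1 (0.07), Sdhaf2 (0.08), Efhd2 (0.08), Gm20604 (0.09) and Atp6v1h (0.10), all with limma adjusted p values of at least 0.471. The distance is a description over 8 libraries and does not separate the groups from the libraries.

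The other genes of the pathway were read from lists. The list of 24 CREB target genes holds the 3 induced members. Of the 24, 16 were higher and 1 was lower in KO islets at an unadjusted limma p below 0.05, against 4.34% and 6.36% of all genes. The adjusted threshold was passed by 0, and 11 had all KO values above all WT values, against 2.67% of all genes. Of the 21 that are not members, 14 were higher, 1 was lower and 10 did not overlap, with KO above. The list was chosen with earlier results of these data known, and it shares Egr1, Npas4, Dusp1 and Ier2 with the genes nearest to Rasd1. The median log2 difference of the list was 1.01, beside -0.03 over all genes, and it was 1.02 over the 21 that are not members. Irs2, the insulin receptor substrate that CREB controls in beta cells, was measured at 10231, 10684, 12786 and 11422 in KO islets, against 2981, 6733, 4532 and 4281 in WT islets (log2 difference 1.34, SE 0.20, limma adjusted p = 0.0524). Fosb, a subunit of the AP-1 transcription factor, differed by 1.33 (adjusted p = 0.128), and Dusp1, a phosphatase of MAP kinases, by 2.63 (adjusted p = 0.152). In all 3 of these genes, as in Rasd1, Sik1 and Crem, WT2 was the highest WT library. Irs2 passed in the fits with a pseudocount of 1, with the stricter filter on low values and with the acinar covariate. Without WT2, 9 of the 24 passed, beside 58 of 15943 genes in all (0.364%). These 9 were Fos, Fosb, Junb, Egr1, Irs2, Dusp1, Ier2, Sik1 and Rasd1.

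**Figure D5:**
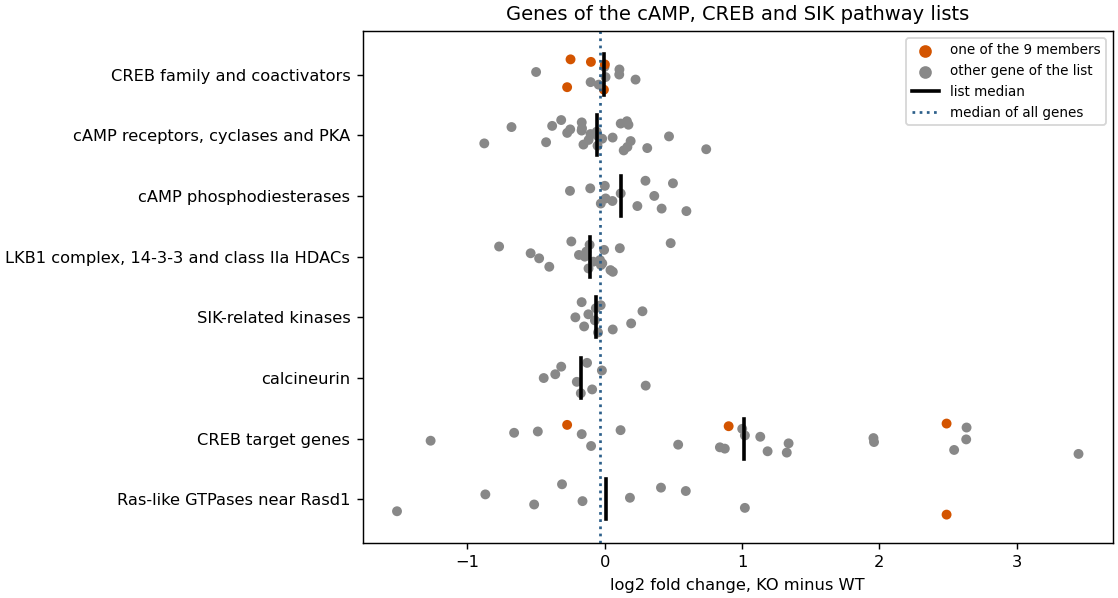
Log2 fold change, KO minus WT (horizontal axis), of every tested gene in 8 lists of the cyclic AMP, CREB and salt-inducible kinase pathway, with members in orange, other genes in grey, the list median as a black bar and the median of all genes (-0.03) as a dotted line. The CREB target genes have a median of 1.01, and the medians of the other 7 lists lie between -0.17 and 0.12.

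In the 7 other lists, members apart, 0 genes passed the adjusted limma threshold in either direction. Of the 13 CREB family and coactivator genes, members included, 0 had an unadjusted limma p below 0.05. Over all genes, 4.34% were higher and 6.36% lower in KO islets at that level. The median of the 13 was -0.01, beside -0.03 over all genes. With every library rescaled to the same total it was 0.08, beside 0.05 over all genes. The shares of all genes at that level were not computed for equal totals. The median of the 8 that are not members was 0.003. Among these 8, the 3 smallest p belonged to Atf7 (log2 difference 0.22, limma adjusted p = 0.661), Creb3l2 (0.11, adjusted p = 0.764) and Atf2 (-0.10, adjusted p = 0.772), all basic leucine zipper factors with overlapping groups. Among 27 receptors, cyclases and protein kinase A genes, 2 were higher and 3 lower at that level, with a median of -0.06 (2 higher, 1 lower and a median of 0.03 with equal totals). Pkia, an inhibitor of protein kinase A, had 76.7, 81.5, 75.3 and 66.4 units in KO islets, against 123, 110, 125 and 122 in WT islets, with no overlap (log2 difference -0.68, limma adjusted p = 0.143). Gipr, the receptor of the incretin GIP, differed by 0.74 (adjusted p = 0.167) and Rapgef4, a cyclic AMP sensor outside protein kinase A, by -0.32 (adjusted p = 0.364). The 13 phosphodiesterases, which degrade cyclic AMP, had 0 genes at that level and a median of 0.12 (0 genes and 0.21 with equal totals). Pde4c differed by 0.36 (adjusted p = 0.471), Pde1a by 0.60 with all KO values above all WT values (adjusted p = 0.58) and Pde1c by 0.41 (adjusted p = 0.614).

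On the side of CRTC control, the list of LKB1 complex, 14-3-3 and class IIa HDAC genes (class IIa HDACs are further substrates of the salt-inducible kinases) had 0 genes higher and 3 lower of 19 at an unadjusted p below 0.05 (median -0.11). The shares of all genes at that level were 4.34% higher and 6.36% lower (median -0.03). With equal totals this list had 1 higher and 2 lower (median -0.02), beside a median of 0.05 over all genes. The shares of all genes with equal totals were not computed, here and for the 2 lists below. Cab39, the scaffold subunit of the LKB1 complex, had 910, 1048, 1061 and 1050 units in KO islets, against 1481, 1227, 1468 and 1219 in WT islets (log2 difference -0.40, limma adjusted p = 0.204). Its groups did not overlap. Ywhah, a 14-3-3 protein, differed by -0.48 (adjusted p = 0.273) and Mef2d, a transcription factor held by class IIa HDACs, by -0.24 (adjusted p = 0.448). Among the 11 tested SIK-related kinases 0 had an unadjusted p below 0.05 (median -0.06), and with equal totals 1 was higher and 0 lower (median 0.02). Mark2 differed by 0.19 without overlap of the groups (adjusted p = 0.505), Mark4 by -0.21 (adjusted p = 0.58) and Nuak2 by 0.28 (adjusted p = 0.592). The calcineurin list of 9 genes had 1 higher and 3 lower at that level (median -0.17), against 1 higher and 1 lower with equal totals (median -0.08). In the values as deposited, against 3.68% of all genes, 4 of the 9 had all KO values below all WT values. These included Rcan1, the inducible inhibitor of calcineurin, with 595, 588, 525 and 556 units in KO islets, against 707, 869, 832 and 684 in WT islets (log2 difference -0.44, limma adjusted p = 0.182), as well as Rcan2 (-0.36, adjusted p = 0.367) and the calcineurin substrate Nfatc2 (-0.32, adjusted p = 0.378).

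Ras-like GTPases related to Rasd1 had values in both directions. Of 10 tested genes of that list, Rasd1 included, 1 was higher and 2 were lower at an unadjusted limma p below 0.05 (median 0.01). The shares of all genes were 4.34% higher and 6.36% lower. The count was 2 higher and 1 lower with equal totals (median 0.10), and 2 higher and 2 lower after quantile normalization (median -0.01) or without WT2 (median 0.08). Medians of all genes were 0.05, -0.01 and -0.03 in the same order. Shares of all genes were not computed under these settings, so the counts have no background beside them. Rasd2, the closest paralog of Rasd1, had 34.6, 98.9, 163 and 151 units in KO islets, against 619, 167, 219 and 250 in WT islets, so that the groups did not overlap but KO3 (163) and WT2 (167) nearly met (log2 difference -1.51, SE 0.58, limma adjusted p = 0.418). Rheb, the activator of mTORC1, differed by -0.31 (adjusted p = 0.33) and Gem, a calcium channel regulator that CREB also controls, by 1.02 (adjusted p = 0.505). Gem had 3529, 2319, 4496 and 3542 units in KO islets, against 1165, 3925, 1937 and 867 in WT islets, with WT2 again the highest WT library.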

How the data were processed

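The authors extracted RNA with the RNeasy kit, prepared libraries with the KAPA stranded kit and sequenced them on an Illumina instrument. Per the methods and the submitters' processing notes, adapters were trimmed with cutadapt (1.13), and reads were pseudoaligned with kallisto (0.46.1) to the mouse GRCm38 transcriptome and summed per gene in sleuth. The deposited values are a normalized signal, estimated reads per gene divided by a size factor per library. The deposited columns with the authors' own group difference, p-values, q-values and model variances were not used. Repeated lines of the 216 symbols with more than 1 line were dropped and distinct identifiers were summed. Low values fell on multiples of a step per library, read as the value of 1 read (64.7 to 74.3% lay within 0.05 of a whole number), and this step gave the depths.

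A gene was tested if 4 or more libraries had a value over 1, on log2(value + 0.5) with limma (3.58.1, R 4.3.3; trended and robust prior, group as the only term, two-sided), adjusted by Benjamini-Hochberg over all 15960 genes at 0.05. Fold changes are on this scale, KO minus WT, and understate changes of low genes. The fit was tested on simulated data. limma replaced the study's sleuth Wald test because the values are scaled. Ratios were compared by exact permutation over 70 assignments. The text names all 9 members, the 3 genes with the smallest p in each list that are not members, the 5 genes nearest to each induced member, and Sox9, and genes named beyond these (those that passed without WT2) were chosen after their values were seen. Members and lists were chosen with earlier results of these data known. Labels do not say how the islets of an animal were pooled, so p-values measure the spread between these libraries. Alternatives changed the pseudocount, the filter, the scaling, the prior, the covariate, the replicate block and the libraries included. Coordinates and exon lengths come from GENCODE vM21 (GRCm38), and promoters from RefSeq (GRCm38.p6).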

Additional observations from a re-analysis of the deposited data

Results flagged for a closer look

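Among 18 groups of 4 values (9 members in 2 genotypes), 4 had a library far from the other 3, by a gap larger than Dixon's critical value for 4 samples. About 1 in 20 groups shows such a gap by chance. Crtc1 was at 263 in KO1, far above the other KO libraries. Crtc3 was at 73.3 in the same library, far below them. Sik3 was at 1756 in KO4, below the other 3 KO libraries. Creb1 was at 309 in WT3, above the other 3 WT libraries. None of these 4 is an induced member.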

How the results depend on the processing

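Rasd1, Sik1, Crem, Crtc2, Crtc3 and Sik3 kept their direction under all 17 alternatives. Without WT2 alone, Rasd1 and Sik1 passed the limma threshold (2.85 and 1.17), so that 0 to 2 members were called when single libraries were left out. The differences of Creb1, Crtc1 and Sik2 lay near 0 and changed sign. Creb1 was at 0.0052 with the acinar covariate, 0.021 with quantile normalization, 0.084 with equal totals and -0.070 to 0.10 with single libraries left out. Crtc1 was at -0.036 with the acinar covariate and -0.16 to 0.080 with single libraries left out. Sik2 was at 0.037, 0.050 and 0.053 under these 3 settings and -0.17 to 0.072 with single libraries left out. The 9 genes called in all became 14 with a pseudocount of 1, 17 with quantile normalization, 3 with the acinar covariate, 1 with a constant prior, and 1 to 58 with single libraries left out (58 without WT2, 3 without WT4, 1 without KO2, KO3, KO4 or WT1). The labels do not say whether libraries of the same replicate number were paired. The correlation of same-numbered deviations was -0.16 to 0.07, and 3 of the 4 KO libraries did not correlate best with their own number. So few pairs cannot show that pairing is absent. With the replicate block 6 genes passed, 0 of them members. Of the 6, 2 were among the 9 genes called in the main fit, and Irs2 was 1 of the 6. Under that block Rasd1 stood at 2.49 (adjusted p = 0.21) and Sik1 at 0.90 (adjusted p = 0.441), and the paired sign flips of the ratios cannot go below an exact p of 0.125. None of the 3 ratios passed after adjustment under any alternative. Without WT2, Sik1 to Sik3 differed by 1.31 (exact permutation p = 0.0286, adjusted p = 0.0857). A single ratio at that p cannot pass once adjusted over the 3, so not passing does not show that the ratio was unchanged. The cause of the shifts between settings was not tested. With 4 libraries a group, the intervals of the constitutive members reach from -0.62 to 0.36.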

Other observations

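Markers of islet cells other than beta and acinar cells gave the following values. Alpha cell markers had 1 positive difference of 7 and a median log2 difference of -0.40, with sums of 186629 to 297017 units in KO islets and 239357 to 456575 in WT islets. Stellate and fibroblast markers were positive in 7 of 7 with a median of 0.41, and their sums were 1493 to 2543 in KO islets and 543 to 3429 in WT islets. Endothelial markers were positive in 8 of 8 with a median of 0.17, at 9986 to 13033 in KO islets and 6483 to 11433 in WT islets. Macrophage markers had a median of 0.02, at 1671 to 2346 in KO islets and 1657 to 2342 in WT islets. Delta cell markers were positive in 1 of 3 with a median of -0.08, at 30384 to 55296 in KO islets and 28084 to 51547 in WT islets. Ppy, the single marker of pancreatic polypeptide cells, had a difference of -0.02, at 47510 to 55279 in KO islets and 45611 to 56145 in WT islets. Duct markers, Sox9 included, had a median of -0.19, at 22542 to 27283 in KO islets and 22929 to 36908 in WT islets. For each of these lists the ranges of the groups overlapped, and 0 genes were at 0 in all libraries.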
